A study of Mus musculus with 6 samples.

Results

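Galectin-3 (*Lgals3*) and 9 further genes of macrophages that gather in injured liver were examined in whole-liver RNA-seq. The 10 genes were chosen by name, with earlier results of these data known. They are 7 genes of lipid-associated macrophages (*Lgals3*, *Gpnmb*, *Spp1*, *Trem2*, *Cd9*, *Fabp5* and *Mmp12*) and 3 genes of newly recruited monocytes (*Ly6c2*, *Chil3* and *F13a1*), of 24346 genes in the table. All 10 reached the minimum for testing, an average of 0.5 FPKM across libraries, as did 11956 genes in all. FPKM is the number of fragments scaled to transcript length and library size, so levels of different genes are compared per length.

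The livers came from 6 male C57/BL6 mice aged 8 weeks, each killed 24 hours after 1 intraperitoneal dose of CCl4 (0.6 μl per g body weight, in sunflower oil). CCl4 is a toxin that hepatocytes turn into a reactive radical, which kills the cells around the central vein. The livers of 3 mice were labelled med23 ko, and are called med23 Δli-labelled here after the paper's name for the genotype. In these mice an *Albumin*-cre transgene removes floxed *Med23*, a subunit of the Mediator complex, from hepatocytes. The macrophages and other liver cells keep the gene. The 3 controls, labelled wt, carry the floxed alleles without deletion (med23 f/f). Both groups received CCl4, and no uninjured liver was analysed here.

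In an injured liver, Ly6C-high monocytes enter from the blood, take up debris and mature. As they fill with lipid from dead cells they switch on a program known as lipid-associated or scar-associated, in which TREM2 senses lipids, CD9 sits in the membrane, FABP5 carries fatty acids, GPNMB belongs to lysosomes and galectin-3, osteopontin (*Spp1*) and MMP12 are secreted. None of these genes belongs to macrophages alone: bile duct cells make osteopontin, galectin-3 and CD9, for example. In bulk tissue, fewer cells of a type and less RNA per cell cannot be told apart.

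*Lgals3* and *Gpnmb* were higher in the med23 Δli-labelled livers than in the controls, by 3.51-fold and 5.04-fold, and no other of the 10 genes passed the test. These folds come from the difference in mean log2(FPKM + 0.1), and the ratios of the mean FPKM were 3.31 and 4.14. *Trem2*, *Spp1*, *Fabp5* and *Mmp12* and the 3 monocyte genes had values that overlapped between the groups, and *Cd9* was lower in all 3 med23 Δli-labelled livers without passing the test. Groups were compared with limma on log2(FPKM + 0.1) over the 11956 genes, with Benjamini-Hochberg adjustment. A gene was called up or down when it changed more than 2-fold (1 on the log2 scale) with an adjusted p under 0.05. Called up were 2 of the 10 genes, beside 4.45% of all genes tested, and called down were 0, beside 3.45%. At an adjusted p under 0.05 with no limit on size, the same 2 genes were higher (11.6% of all genes) and 0 were lower (9.48% of all genes). At an unadjusted p under 0.05 in limma, 4 of the 10 genes passed, *Lgals3*, *Gpnmb*, *Ly6c2* (higher) and *Cd9* (lower). The share of all genes at that unadjusted threshold is not given here. It cannot be less than the 11.6% higher and 9.48% lower after adjustment, so no excess is read from this count. The 3 livers of a group lay wholly above the controls for 2 genes, *Lgals3* and *Gpnmb*, beside 23.3% of all genes, and wholly below them for 1, *Cd9*, beside 20.4%. Over all genes tested, the median log2 fold change was 0.02.

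**Figure D1:**
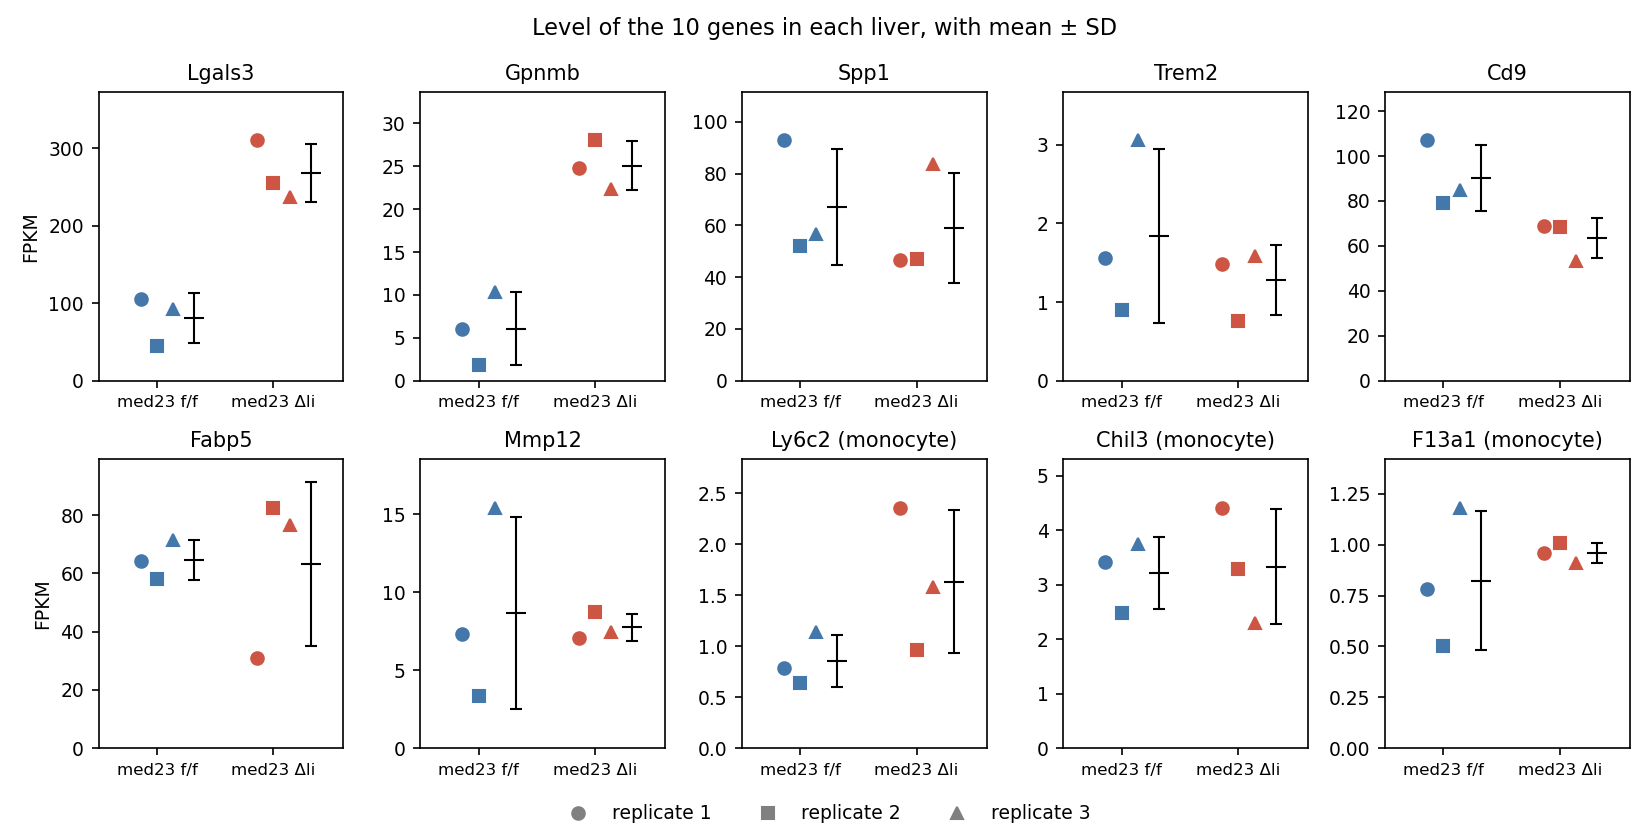
Level of each of the 10 genes in FPKM (vertical axis, starting at 0) in the 3 control livers (blue) and the 3 med23 Δli-labelled livers (red), with the replicate number as the marker shape and mean ± SD beside each group. *Lgals3* lies between 44.1 and 105.7 FPKM in the controls and between 237.4 and 310.3 FPKM in the other group, and *Gpnmb* is likewise apart, whereas 7 of the 10 genes overlap.

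*Med23* had 3.42, 2.97 and 4.14 FPKM in the controls and 3.40, 3.40 and 2.91 FPKM in the med23 Δli-labelled livers. These values overlapped (log2 fold change −0.11, limma adjusted p = 0.685), so the whole-liver level of *Med23* does not separate the groups and the labels rest on the submitters' genotypes. The tissue carried hepatocyte transcripts throughout, with *Alb* (albumin) at a mean of 19740 FPKM in the controls and 15410 FPKM in the other group. FPKM values hold no read counts, so the depth of each library is unknown and the spread between 3 mice is the only error given. The 10 most abundant genes took 17.1% to 20.3% of the summed FPKM in the controls and 11.9% to 13.7% in the med23 Δli-labelled livers. Replicate 2 of med23 Δli stood apart from all other libraries in genes of fat tissue, with 8 of 11 adipocyte markers at least 2 times higher in it than in any other.

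The promoters of *Lgals3* and *Gpnmb*, the genes that rose, and of *Trem2*, the receptor of the same program that did not pass the test, are shown for the sequence before each RefSeq start. Each is the 250 bases before the first base of the gene's RefSeq transcript on GRCm38.p6, the assembly of mm10, 5′ to 3′ on the plus strand. They lie at chr14:47373610-47373859 (*Lgals3*), chr6:49036268-49036517 (*Gpnmb*) and chr17:48346151-48346400 (*Trem2*). The RefSeq start of *Lgals3* is downstream of the GENCODE start used for positions here, so its window lies inside the gene as GENCODE draws it. Capitals mark motifs.
Lgals3: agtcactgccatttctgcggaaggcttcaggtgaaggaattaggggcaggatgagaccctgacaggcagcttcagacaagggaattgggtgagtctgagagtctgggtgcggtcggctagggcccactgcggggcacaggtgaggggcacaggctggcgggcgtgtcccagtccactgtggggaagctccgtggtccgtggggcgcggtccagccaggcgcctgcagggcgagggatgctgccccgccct
Gpnmb: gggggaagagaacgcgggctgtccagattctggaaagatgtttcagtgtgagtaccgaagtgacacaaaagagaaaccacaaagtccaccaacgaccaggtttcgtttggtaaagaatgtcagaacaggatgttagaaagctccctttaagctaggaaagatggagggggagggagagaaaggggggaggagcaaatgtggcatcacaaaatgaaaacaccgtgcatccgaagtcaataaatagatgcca
Trem2: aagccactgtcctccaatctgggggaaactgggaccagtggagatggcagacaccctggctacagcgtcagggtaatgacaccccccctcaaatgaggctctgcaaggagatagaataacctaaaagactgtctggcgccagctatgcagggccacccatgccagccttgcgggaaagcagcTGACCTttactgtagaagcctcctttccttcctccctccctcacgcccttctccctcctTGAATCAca

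Motifs of 5 kinds were searched on both strands. They are TCATGTG and CACGTG, bound by MITF and TFE factors, TGANTCA (AP-1), GAGGAAGT (PU.1, the factor of myeloid cells) and AGGTCA, a nuclear receptor half-site. None of them is in these windows of *Lgals3* or *Gpnmb*, nor in those of *Cd9*, *Chil3* and *F13a1*, which did not pass the test. Windows of *Spp1*, *Mmp12* and *Ly6c2*, which did not pass either, hold some of them. The *Trem2* window holds TGAATCA at position −9 and TGACCT, the half-site on the other strand, at position −68, counted back from the start. Among 32851 promoter windows of this length, TCATGTG is in 3.25%, CACGTG in 6.02%, TGANTCA in 6.75%, GAGGAAGT in 2.44% and AGGTCA in 14%. Of the 10 genes, 9 had a promoter in the RefSeq table, and a match of letters is no evidence that a factor binds.

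Galectin-3 is a lectin that binds sugars on cell surfaces and matrix and marks activated macrophages. *Lgals3* (ENSMUSG00000050335.17) is a plus-strand gene at 47367751 to 47386160 on chromosome 14 (mm10). It had 105.7, 44.1 and 92.9 FPKM in the controls and 310.3, 255.6 and 237.4 FPKM in the med23 Δli-labelled livers. The lowest of the latter was more than 2 times the highest control. Averages of 80.9 ± 32.5 and 267.8 ± 37.9 FPKM (SD, n = 3 each) gave a log2 difference of 1.81 (standard error 0.31, 95% interval 1.09 to 2.53, limma adjusted p = 0.00899). By exact permutation, two-sided, p was 0.1, the smallest that 3 livers against 3 allow. Leaving out any 1 library moved the difference between 1.42 and 2.05, and *Lgals3* stayed called up.

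GPNMB is a transmembrane glycoprotein of lysosomes and phagosomes. *Gpnmb* (ENSMUSG00000029816.10) is a plus-strand gene at 49036546 to 49070929 on chromosome 6. Its levels were 6.03, 1.83 and 10.3 FPKM in the controls and 24.8, 28.1 and 22.4 FPKM in the med23 Δli-labelled livers. The groups did not overlap, with means of 6.06 ± 4.24 and 25.1 ± 2.84 FPKM (SD, n = 3 each). The log2 difference was 2.33 (standard error 0.53, 95% interval 1.12 to 3.55, limma adjusted p = 0.0208). The call rested on having 3 med23 Δli-labelled livers: without replicate 1, 2 or 3 of them the log2 fold change was 2.34, 2.25 and 2.41, but the adjusted p rose to 0.0660, 0.0685 and 0.0656. The count of genes called up then fell from 2 to 1.

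TREM2 is the lipid-sensing receptor of the program and had the lowest level of the 7 lipid-associated genes in both groups. *Trem2* (chromosome 17, plus strand, 48346401 to 48354147) had 1.56, 0.902 and 3.06 FPKM in the controls and 1.49, 0.765 and 1.59 FPKM in the med23 Δli-labelled livers. The latter lay within or below the range of the controls. *Trem2* differed by −0.40 on the log2 scale (standard error 0.44, 95% interval −1.41 to 0.62, limma adjusted p = 0.539), and without control replicate 3 it was 0.03. The interval reaches a 2-fold fall but not a 2-fold rise. The TREM receptors and their signalling partners gave no call either: of 10 listed genes 6 were tested and 0 passed in either direction (limma; also 0 at an unadjusted p under 0.05). *Tyrobp* (the adaptor DAP12, which carries the TREM2 signal) had 35.6 ± 8.07 and 32.3 ± 1.22 FPKM (SD, n = 3 each).

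Osteopontin, encoded by *Spp1*, is a secreted phosphoprotein that binds integrins and CD44. *Spp1* (chromosome 5, plus strand, 104435118 to 104441050) had 92.9, 51.9 and 56.7 FPKM in the controls and 46.5, 46.9 and 83.6 FPKM in the med23 Δli-labelled livers. A single liver in each group was high, replicate 1 of the controls and replicate 3 of the others, and the groups overlapped. The log2 difference of *Spp1* was −0.19 (standard error 0.29, 95% interval −0.87 to 0.48, limma adjusted p = 0.658), and it was 0.06 without control replicate 1. Of 8 osteopontin receptor genes, 1 was higher at an adjusted p under 0.05 and 1 was lower, beside 11.6% and 9.48% of all genes. At an unadjusted p under 0.05 in limma 3 were higher, *Cd44*, *Itgav* and *Itga4*, and 1 was lower, *Itgb3*. *Cd44* had 4.61 ± 1.18 and 7.25 ± 0.380 FPKM (log2 fold change 0.67, limma adjusted p = 0.0478), and *Itgb3*, the integrin beta-3 chain also found on platelets, had 3.40 ± 0.940 and 1.46 ± 0.0908 FPKM (−1.14, limma adjusted p = 0.0127). With single libraries left out, the adjusted p of *Cd44* missed 0.05 in 5 of 6 cases, with a highest value of 0.139. *Itgb3* missed it without med23 Δli replicate 1 (0.0564) and fell short of 2-fold without control replicate 3.

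CD9 is a tetraspanin of many cell types that also marks scar-associated macrophages. *Cd9* (chromosome 6, minus strand, 125460266 to 125494791) had 107.1, 78.9 and 84.7 FPKM in the controls and 68.9, 68.4 and 53.2 FPKM in the med23 Δli-labelled livers. All 3 values of the latter group lay below the lowest control, the opposite order to *Lgals3* and *Gpnmb*. The difference was −0.50 on the log2 scale (standard error 0.17, 95% interval −0.90 to −0.11), and the limma adjusted p of 0.0696 missed the threshold. It passed when each library was centred on its median (−0.53, limma adjusted p = 0.0462) and after quantile normalization (−0.61, limma adjusted p = 0.0261). Exons of Gm26728 overlap *Cd9* on the opposite strand, and since use of strand in counting is not stated, reads of the pair cannot be told apart. Of 9 tetraspanins on the list, 0 passed in either direction (limma; 2 were lower at an unadjusted p under 0.05, *Cd9* and *Cd82*), and the most abundant, *Cd63* of late endosomes, had 310.4 ± 124 and 454.8 ± 35.1 FPKM (SD, n = 3 each).

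FABP5 binds fatty acids inside macrophages and epithelial cells. *Fabp5* (chromosome 3, plus strand, 10012548 to 10016607) had 64.2, 58.1 and 71.6 FPKM in the controls and 31.0, 82.6 and 76.5 FPKM in the med23 Δli-labelled livers. Replicate 1 of the latter was the lowest of all 6 livers and replicates 2 and 3 the highest. Between the groups *Fabp5* differed by −0.15 on the log2 scale (standard error 0.35, 95% interval −0.95 to 0.65, limma adjusted p = 0.783). It was 0.30 without med23 Δli replicate 1 and −0.40 without replicate 2, the library high in adipocyte markers, whose part in the *Fabp5* level was not tested. Stretches of 50 bases shared with other genes made up 21.1% of the *Fabp5* transcript, mostly with the copy Gm6166, so its level is uncertain. Of 8 genes of the family 6 were tested and 1 passed, *Fabp7*, which was lower (log2 fold change −0.76, limma adjusted p = 0.0466, and up to 0.151 with a library left out), while *Fabp1* of hepatocytes was the most abundant at 3523 ± 289 and 4762 ± 1458 FPKM.

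MMP12, macrophage elastase, degrades elastin. *Mmp12* (chromosome 9, plus strand, 7344381 to 7369499) had 7.31, 3.33 and 15.4 FPKM in the controls and 7.08, 8.73 and 7.47 FPKM in the med23 Δli-labelled livers. The controls spanned both ends of the range and the other group sat between them. Its log2 difference was 0.09 (standard error 0.46, 95% interval −0.98 to 1.17, limma adjusted p = 0.901), and it turned to −0.45 without control replicate 2 and to 0.63 without control replicate 3. *Mmp1b* overlaps *Mmp12* on the opposite strand.

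**Figure D2:**
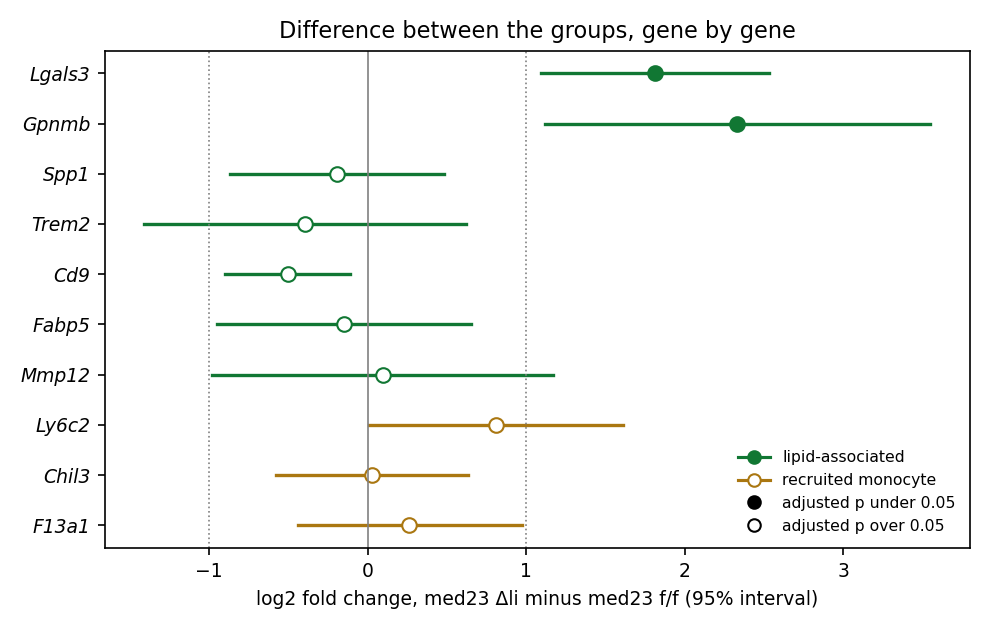
Log2 fold change of each of the 10 genes, med23 Δli-labelled livers minus controls, with its 95% interval from limma (horizontal axis). Filled points passed an adjusted p of 0.05, and dotted lines mark a 2-fold difference. The intervals of *Lgals3* (1.09 to 2.53) and *Gpnmb* (1.12 to 3.55) lie wholly beyond 2-fold, and those of 6 of the other 8 genes span 0.

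Ly6C2 is the surface antigen of inflammatory monocytes. *Ly6c2* (chromosome 15, minus strand, 75108158 to 75111970) had 0.786, 0.642 and 1.14 FPKM in the controls and 2.36, 0.966 and 1.58 FPKM in the med23 Δli-labelled livers. Replicates 1 and 3 of the latter lay above all controls and replicate 2 did not. The difference in *Ly6c2* was 0.81 on the log2 scale (standard error 0.35, 95% interval 0.01 to 1.61, limma adjusted p = 0.128), and all values were low. *Ly6c2* shares 33.0% of its 50-base stretches with other genes, nearly all with *Ly6c1*, an antigen of endothelial cells too, so reads may be split between them. *Ly6c1* had 0.272, 0.620 and 0.718 FPKM in the controls and 0.557, 2.41 and 0.783 FPKM in the other group (log2 fold change 0.91, limma adjusted p = 0.248). Of 9 genes on the Ly6 list 6 were tested and 0 passed in limma, with 1 (*Ly6c2*) at an unadjusted p under 0.05. The most abundant of them, *Ly6e*, had 82.0 ± 19.3 and 101.8 ± 17.8 FPKM.

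Chil3, also called Ym1, is a chitinase-like lectin secreted by myeloid cells. *Chil3* (chromosome 3, minus strand, 106147554 to 106167564) had 3.41, 2.48 and 3.75 FPKM in the controls and 4.42, 3.28 and 2.30 FPKM in the med23 Δli-labelled livers. The med23 Δli-labelled livers held both the highest and the lowest value. *Chil3* differed by 0.03 on the log2 scale (standard error 0.26, 95% interval −0.58 to 0.63, limma adjusted p = 0.955), and its sign changed with the scaling of the libraries. Other genes shared 29.4% of its 50-base stretches, *Chil4* the most with 18.5%, and *Chil4* was listed at 0 in every library. Of 7 genes of the family 2 were tested and 0 passed in limma, also at an unadjusted p under 0.05.

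F13a1 is the catalytic chain of coagulation factor XIII, made by monocytes and macrophages. *F13a1* (chromosome 13, minus strand, 36867178 to 37050244) had 0.783, 0.504 and 1.18 FPKM in the controls and 0.958, 1.01 and 0.908 FPKM in the med23 Δli-labelled livers. The latter lay close together, inside the range of the controls. For *F13a1* the log2 difference was 0.26 (standard error 0.31, 95% interval −0.44 to 0.97, limma adjusted p = 0.560). Gm30489 overlaps it on the opposite strand.

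Compared as lists, the lipid-associated genes had a median log2 fold change of −0.15 (n = 7) and the recruited monocyte genes one of 0.26 (n = 3), a difference of −0.41, beside 0.02 over all genes tested. The lipid-associated mean had the other sign, 0.43, because of *Lgals3* and *Gpnmb*: the median of the remaining 5 genes was −0.19. Liver by liver, the lipid-associated genes averaged 4.61, 3.72 and 4.85 in the controls and 4.72, 4.82 and 4.92 in the med23 Δli-labelled livers on the log2(FPKM + 0.1) scale. On the same scale the monocyte genes averaged 0.49, 0.07 and 0.87 in the controls and 1.19, 0.67 and 0.67 in the other group. Lipid-associated minus monocyte was 3.92 ± 0.24 in the controls and 3.98 ± 0.39 in the med23 Δli-labelled livers (SD, n = 3 each). The groups overlapped, so the balance between the lists differed by less than the spread between livers. Within the lipid-associated list, by contrast, the order of levels changed. In the controls *Cd9* (90.2 FPKM), *Lgals3* (80.9), *Spp1* (67.2) and *Fabp5* (64.6) overlapped as neighbours, and *Mmp12* (8.69) and *Gpnmb* (6.06) came next, overlapping each other. In the med23 Δli-labelled livers *Lgals3* (267.8 FPKM) stood above *Cd9* (63.5) without overlap, and *Gpnmb* (25.1) stood above *Mmp12* (7.76) without overlap.

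A wider list of 20 lipid-associated macrophage genes, all tested, had a median log2 fold change of 0.10. At an adjusted p under 0.05, 4 were higher (beside 11.6% of all genes) and 1 was lower (beside 9.48%). *Cstb* (cystatin B, an inhibitor of lysosomal cathepsins) had 315.3, 240.5 and 402.3 FPKM in the controls and 909.8, 906.4 and 878.4 FPKM in the med23 Δli-labelled livers (log2 fold change 1.52, limma adjusted p = 0.00373), with no overlap. *Atp6v0d2*, a subunit of the proton pump of lysosomes, had 0.265, 0.0757 and 0.441 FPKM in the controls and 1.78, 1.10 and 1.34 FPKM in the other group (2.19, limma adjusted p = 0.0145). *Ctsd*, the lysosomal protease cathepsin D, had 282.2 ± 7.71 and 457.4 ± 65.1 FPKM (0.69, limma adjusted p = 0.0179), and *Anxa2*, annexin A2, 146.7 ± 19.9 and 218.7 ± 29.1 FPKM (0.58, limma adjusted p = 0.0404). The gene that fell was *Plin2*, which coats lipid droplets in hepatocytes as well as macrophages, with 2200 ± 321 and 851.4 ± 180 FPKM (−1.38, limma adjusted p = 0.00579). *Cstb* and *Plin2* passed with any library left out, whereas *Atp6v0d2* did not without med23 Δli replicate 1 or 3, with a highest adjusted p of 0.0654. Leaving out a library took *Ctsd* to 0.0818 and *Anxa2* to 0.149 at most. A wider list of 18 recruited monocyte genes had 14 tested, a median of −0.07 and 0 that passed in either direction (limma; 2 at an unadjusted p under 0.05, *Cybb* higher and *Ear2* lower). *Lyz2* (lysozyme), the most abundant of these, had 77.7 ± 8.36 and 85.6 ± 6.71 FPKM.

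**Figure D3:**
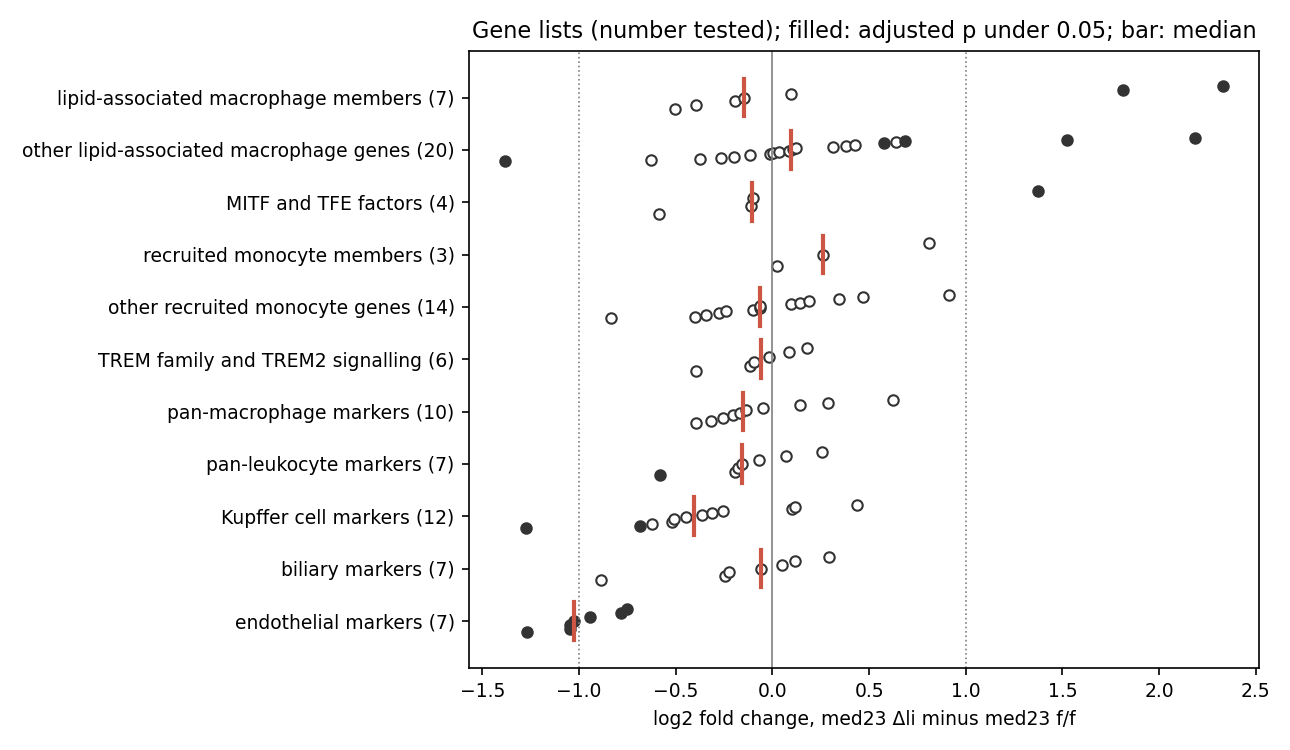
Log2 fold change (med23 Δli-labelled livers minus controls, horizontal axis) of every tested gene of 11 lists, with filled points for an adjusted p under 0.05, a red bar at each list's median and dotted lines at 2-fold. The recruited monocyte, TREM and pan-macrophage lists hold no filled point, and all 7 endothelial markers are filled and below 0.

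MITF, TFEB, TFE3 and TFEC are related factors that switch on lysosomal genes, and *Gpnmb* and *Atp6v0d2* are known targets of MITF in melanocytes or osteoclasts. *Mitf* had 1.40, 0.787 and 1.91 FPKM in the controls and 3.02, 3.50 and 4.05 FPKM in the med23 Δli-labelled livers. The groups did not overlap (log2 fold change 1.37, standard error 0.30, limma adjusted p = 0.0186). It lost its call without med23 Δli replicate 1, 2 or 3, with a highest adjusted p of 0.0729. The other 3 factors did not pass, at −0.10 (*Tfeb*), −0.11 (*Tfe3*) and −0.58 (*Tfec*) on the log2 scale.

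Among 10 galectin genes 6 were tested, and *Lgals3* alone was higher at an adjusted p under 0.05. *Lgals4*, a galectin of the gut lining, had 7.42, 15.4 and 16.2 FPKM in the controls and 7.16, 4.78 and 4.12 FPKM in the med23 Δli-labelled livers (log2 fold change −1.22, limma adjusted p = 0.0354). *Lgals3bp*, a secreted glycoprotein that galectin-3 binds, had 50.3 ± 13.3 and 27.3 ± 6.26 FPKM (−0.87, limma adjusted p = 0.0361), the opposite direction to *Lgals3*. With a library left out the adjusted p reached 0.117 for *Lgals4* and 0.118 for *Lgals3bp*. *Lgals9* had 168.2 ± 37.4 and 224.7 ± 17.2 FPKM (0.44, limma adjusted p = 0.110), *Lgals1* 19.7 ± 4.92 and 15.1 ± 2.87 FPKM (−0.38, limma adjusted p = 0.241), and *Lgals8* 44.8 ± 3.44 and 45.0 ± 5.70 FPKM.

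No general macrophage marker passed the test. Of 10 pan-macrophage markers 0 passed in either direction (limma; 0 also at an unadjusted p under 0.05), their log2 fold changes ran from −0.39 to 0.62 with a median of −0.15, and their summed level was 284.1 to 359.0 FPKM in the controls and 300.5 to 324.2 FPKM in the med23 Δli-labelled livers. *Cd68*, a lysosomal glycoprotein of macrophages and, with *Lyz2* at nearly the same level, the most abundant of them, had 64.4, 52.6 and 109.1 FPKM in the controls and 86.0, 98.1 and 79.6 FPKM in the other group (log2 fold change 0.29, limma adjusted p = 0.443). Set against *Cd68* in the same liver, *Lgals3* was 1.64, 0.838 and 0.852 in the controls and 3.61, 2.60 and 2.98 in the med23 Δli-labelled livers. The ratio of *Gpnmb* to *Cd68* was 0.0936, 0.0348 and 0.0946 in the controls and 0.288, 0.286 and 0.281 in the other group, where it was nearly the same in all 3 livers. Neither ratio overlapped between the groups, nor did they against *Csf1r* or *Adgre1*, the receptor for the growth factor CSF1 and the antigen F4/80. The ratios of the other 8 genes to *Cd68* and *Csf1r* overlapped. Against *Adgre1* they overlapped for 7 of these, and *Ly6c2* did not, at 0.236, 0.169 and 0.224 in the controls and 0.637, 0.267 and 0.366 in the other group. The ratios to *Cd68* were 0.0232 ± 0.00554 and 0.0150 ± 0.00638 for *Trem2*, and 0.106 ± 0.0396 and 0.0884 ± 0.00574 for *Mmp12* (SD, n = 3 each). *Lgals3* per *Gpnmb* overlapped as well, at 16.9 ± 7.56 and 10.7 ± 1.70.

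**Figure D4:**
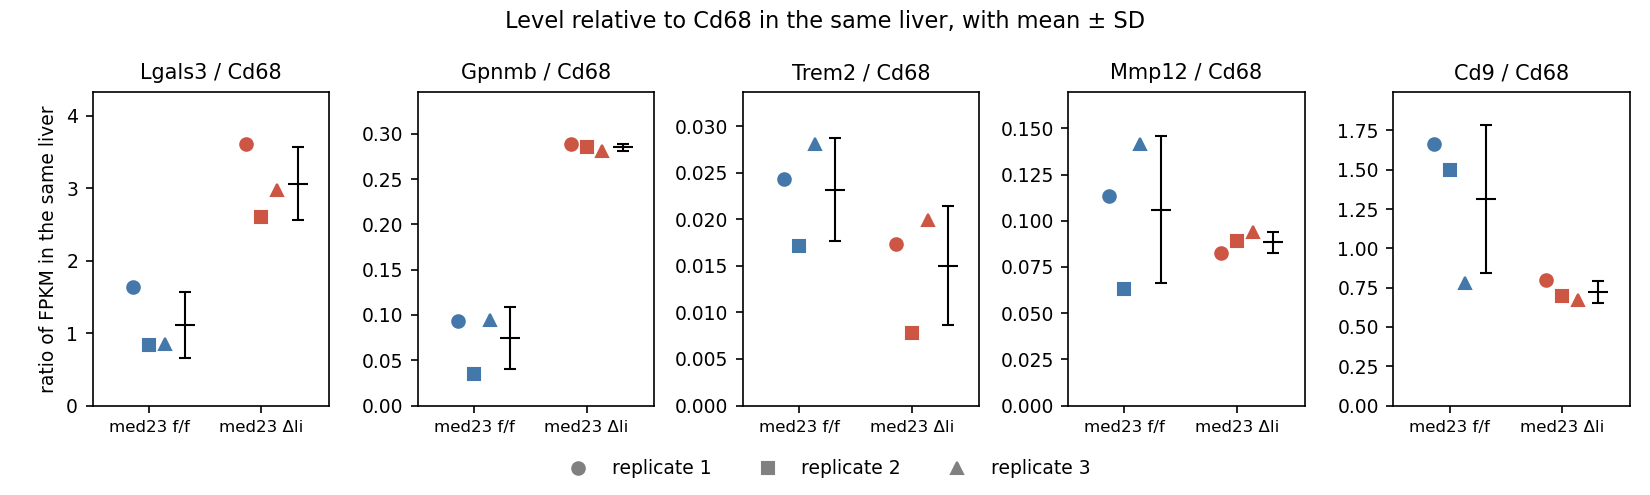
FPKM of *Lgals3*, *Gpnmb*, *Trem2*, *Mmp12* and *Cd9* divided by that of *Cd68* in the same liver (vertical axis, a ratio without unit, starting at 0), for 3 controls (blue) and 3 med23 Δli-labelled livers (red), with mean ± SD. The *Lgals3* and *Gpnmb* ratios do not overlap between the groups, and the *Trem2*, *Mmp12* and *Cd9* ratios do.

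Markers of other cells that could carry these transcripts were read beside them. Bile duct cells make galectin-3, osteopontin and CD9: of 8 biliary markers 7 were tested and 0 passed (limma; also 0 at an unadjusted p under 0.05), and their summed level was 19.5 to 24.7 FPKM in the controls and 21.4 to 22.6 FPKM in the med23 Δli-labelled livers. Resident Kupffer cells were represented by 12 markers, with a median log2 fold change of −0.41. At an unadjusted p under 0.05 in limma 1 was higher, *C6*, and 5 were lower. After adjustment 0 were higher and 2 lower, beside 11.6% and 9.48% of all genes. The lower were *Clec1b* (log2 fold change −1.28, limma adjusted p = 0.00648) and the complement gene *C1qa* (−0.68, limma adjusted p = 0.0425). With a library left out, the adjusted p of *C1qa* in limma reached 0.139. The summed level of the Kupffer cell markers was 294.7 to 459.0 and 287.6 to 316.8 FPKM. Platelets hold *F13a1* and *Cd9* too: 2 of 7 markers were tested and 1 was lower, *Itga2b* (−0.91, limma adjusted p = 0.0321, and up to 0.103 with a library left out), with *Pf4* at 3.88 ± 0.624 and 2.21 ± 1.48 FPKM and a summed level of 5.66 to 8.15 and 2.35 to 5.59 FPKM. Neutrophils were represented by 5 tested markers of 12, of which 0 passed (limma; 3 were lower at an unadjusted p under 0.05), with sums of 43.8 to 137.4 and 41.6 to 100.8 FPKM. Endothelial cells carry CD9 too: all 7 endothelial markers were lower at an adjusted p under 0.05 in limma, the direction of *Cd9*, with a median log2 fold change of −1.03 and a summed level of 89.5 to 128.3 FPKM in the controls and 48.5 to 52.0 FPKM in the other group. The part of these cells in the levels of *Lgals3*, *Gpnmb* and *Cd9* was not tested.

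The 10 genes shared a pattern among the controls. Control replicate 2 was the lowest control for 10 of 10 genes, compared with 39.9% of all genes tested, 2 of 10 pan-macrophage markers and 0 of 12 Kupffer cell markers. It was the highest control for 10 of 12 Kupffer cell markers. Control replicate 3 was the highest control for 7 of the 10 genes and replicate 1 for 3. The genes share a library, so these counts describe 1 liver and were not tested. The coefficient of variation was lower in the med23 Δli-labelled livers for 6 of the 10 genes. It was 40.2% in the controls and 14.2% in the med23 Δli-labelled livers for *Lgals3*, 70.0% and 11.3% for *Gpnmb*, 70.9% and 11.1% for *Mmp12*, and 41.4% and 5.13% for *F13a1*. It was higher in them for 4 genes, *Fabp5* (10.5% and 44.5%), *Ly6c2* (29.8% and 42.8%), *Chil3* (20.6% and 31.7%) and *Spp1* (33.4% and 36.1%). Without control replicate 2 the log2 fold change of *Lgals3* was 1.42 and that of *Gpnmb* 1.65, and both remained called up.

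Across the 6 libraries, the genes whose pattern lay closest to *Lgals3* were sought among the 7453 genes averaging 5 FPKM or more, by the root mean square difference of log2(FPKM + 0.1) after each gene was centred on its own mean. Among the closest were *Xkr9* (0.159), the monocyte chemokine gene *Ccl7* (0.164), *N4bp2l1* (0.175) and *Mnt* (0.206). *Ccl7* had 3.45, 1.17 and 3.07 FPKM in the controls and 10.1, 8.38 and 5.80 FPKM in the med23 Δli-labelled livers. *Gpnmb* came in place 204 with 0.497. With 6 libraries in 2 groups, closeness includes the difference between the groups.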

How the data were processed

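RNA from 6 whole livers (TruSeq v2 libraries, paired reads) was measured, 3 per group, grouped by the submitters' sample titles. Per the paper's methods and the submitters' processing notes, the authors checked reads with FastQC, trimmed adapters, aligned to mm10 with TopHat and ran Cuffdiff. Versions and annotation are not given in the sources used here. The deposited values used are FPKM per gene and library. The authors' group means, log2 fold changes, test statistics, p-values and q-values were not used. Low FPKM showed no step common to libraries, so read counts could not be rebuilt and no counting interval is given.

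Genes averaging 0.5 FPKM or more were compared as log2(FPKM + 0.1) with limma 3.58.1 (R 4.3.3, lmFit and eBayes with a trend), without a replicate block, and with Benjamini-Hochberg adjustment over 11956 genes. Fold changes on this scale are understated for low genes. The script was tested on simulated data. Single genes also had an exact permutation test. Alternatives were pseudocounts of 1 and 0.01, no filter or one at 1 FPKM, median centring, quantile normalization, eBayes without a trend or robust, a replicate block, and each library left out in turn. Each library is 1 labelled liver.

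The members and gene lists were chosen with earlier results of these data known. Named are the 10 members, the called genes of each list (at most 4) or else its most abundant gene, *Ly6c1*, *Chil4*, *Med23* and the 5 genes most like *Lgals3*, of which 1 is not reported here. Genes that make up a count of 5 or fewer, further galectins, *Csf1r*, *Adgre1* and the other TFE factors were named after their values were seen. Positions are from GENCODE M21 (the mm10 assembly), shared 50-base stretches from its transcripts, and promoters from RefSeq on GRCm38.p6. Python 3.11.15, pandas 2.3.3, numpy 2.4.6, scipy 1.17.1 and matplotlib 3.10.9 were used.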

Additional observations from a re-analysis of the deposited data

How the results depend on the processing

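*Lgals3* stayed called up under every alternative run, with a log2 fold change of 1.42 to 2.05 when a library was left out. The number of members called up, and of members higher at an adjusted p under 0.05, ranged from 1 to 2 with a library left out. It was 1 without any of the 3 med23 Δli-labelled libraries, since *Gpnmb* then missed the adjusted p, and 2 under all other alternatives. The log2 fold change of *Gpnmb* ran from 1.65 to 2.87 over the 6 libraries left out. The number lower at an adjusted p under 0.05 rose from 0 to 1 (*Cd9*) with median centring and with quantile normalization. With a library left out, the log2 fold change changed sign for *Spp1* (−0.474 to 0.0642), *Trem2* (−0.794 to 0.0343), *Fabp5* (−0.40 to 0.30), *Mmp12* (−0.45 to 0.63), *Chil3* (−0.20 to 0.26) and *F13a1* (−0.0097 to 0.532). That of *Chil3* was also −0.0039 with median centring and −0.0087 with quantile normalization. *F13a1* had no value with a filter at 1 FPKM. With a library left out, the lipid-associated median ran from −0.36 to 0.16 and the recruited monocyte median from −0.0097 to 0.532, so the sign of neither is settled, and their difference ran from −0.64 to −0.10. Same-numbered livers did not deviate together (correlations of −0.022, −0.046 and −0.124). This gives no sign that the numbers pair mice, but it cannot exclude a pairing. With the replicate block 2 members were called up, and 477 genes in all were called up and 353 down. All-gene calls were 532 up and 412 down, 371 and 229 with a pseudocount of 1, and 319 to 730 and 268 to 529 with a library left out. FPKM without counts sets no detection limit for low genes such as *F13a1*, *Ly6c2* and *Trem2*. The cause of these changes was not tested.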

Other observations

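All 7 endothelial markers were lower in the med23 Δli-labelled group (limma, adjusted p under 0.05) and 4 of them were called down. These were *Clec4g* (log2 fold change −1.27), *Lyve1* (−1.05), *Stab2* (−1.05) and *Kdr* (−1.03), genes of the sinusoidal lining and its growth factor receptor. *Lyve1* no longer passed with some libraries left out (adjusted p up to 0.0915), and *Stab2* and *Kdr* then fell short of 2-fold in some. Of 8 stellate cell markers 2 were lower, *Colec11* and *Des*, and the most abundant, *Dcn*, had 71.8 ± 9.40 and 57.9 ± 7.84 FPKM (SD, n = 3 each). At the same threshold 9.48% of all genes tested were lower. Of 10 hepatocyte markers 1 was lower, *Serpina1a* (−0.70, limma adjusted p = 0.0305). Of 7 pan-leukocyte markers 1 was lower, *Coro1a* (−0.58, limma adjusted p = 0.0478, and up to 0.146 with a library left out).

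In the remaining lists, none of 8 T and NK cell markers or 5 B cell markers was tested, *Nkg7* being the most abundant of the former at 0.387 ± 0.336 and 0.330 ± 0.163 FPKM and *Cd79b* of the latter at 0.476 ± 0.111 and 0.387 ± 0.125 FPKM. Of 7 dendritic cell markers 2 were tested, of 5 mesothelial markers 4, and of 5 proliferation markers 2, and 0 passed in either direction (limma; at an unadjusted p under 0.05, *Clec9a* was lower and *Birc5* higher). Of 7 adipocyte markers tested, 1 was lower, *Cidec* (−3.24, limma adjusted p = 0.0161). Of 4 erythroid markers tested, 1 was higher, *Hba-a1* (4.77, limma adjusted p = 0.0410, and up to 0.121 with a library left out), which shares reads with a near-identical copy and is uncertain. Of 10 housekeeping genes, none at 0 in any library, 3 were higher at an adjusted p under 0.05 in limma and 1 was lower. The shares over all genes were 11.6% and 9.48%. Among the higher were *Rplp0* (log2 fold change 0.56) and *Pgk1* (0.53), and the lower was *Actb* (−1.08). The median log2 fold change of the housekeeping list was 0.45, beside 0.02 over all genes tested.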
